A study of Homo sapiens with 6 samples.

Results

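Immediate early genes and targets of the transcription factor CREB were examined as a list of 37 genes, chosen by name and role. The list held the FOS and JUN subunits of AP-1, ATF3, the EGR, NR4A, IER and KLF factors, BTG1 and BTG2, the feedback regulators DUSP1 and ZFP36, the cAMP-responsive genes SIK1, PER1, RGS2, CREM, STC1 and PPARGC1A, CREB1 with its CRTC coactivators, MYC and SRF. Of the 37, 36 were read from a count table of 31122 genes, and 35 passed the filter on low counts, as did 17420 genes in all. EGR2 stayed under the filter, with 7, 5 and 1 counts in populations 11, 12 and OG, against 5, 1 and 2 counts in wells W1, W2 and W3. PPARGC1A, a metabolic coactivator induced by cAMP in liver and muscle, was read from the FPKM table only and was at most 0.000212 FPKM in any library.

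The libraries came from MDA-MB-468, an established cell line from a triple-negative breast cancer. The KO-labelled group held 3 populations titled 11, 12 and OG, with the genotype label GPR52 KO, made with CRISPR-Cas9 and 1 guide RNA, sgRNA1, against the orphan receptor GPR52. The parental-labelled group held wells W1, W2 and W3 of the unedited line, with the genotype label WT, from 1 plate. The submitters state that indels were seen by Sanger sequencing. No treatment or non-targeting guide is named in the labels, nor whether a population is a clone or a pool. GPR52 had 645, 694 and 724 counts in populations 11, 12 and OG, against 9, 1 and 0 counts in W1, W2 and W3, so its transcript was higher under the KO label. Directions below are therefore those of the libraries labelled GPR52 KO relative to the libraries labelled parental. Whether the labels were exchanged was not tested, and an exchange would reverse every rise and fall given here. Total counts lay between 25637794 and 31692454 per library, so that 1 count was worth 0.0321 to 0.0397 CPM (counts scaled to library size, with TMM factors). Because wells of 1 plate and populations of unstated relation stand for replicates, p-values measure the spread between these libraries, which may be technical. Across genes, log2 CPM correlated at 0.981 to 0.992 between populations and at 0.995 between wells, and OG was the population less like the other two. The epithelial markers KRT8, KRT18, CDH1 and EPCAM summed to between 2533 and 3363 CPM in KO-labelled libraries and between 3371 and 3669 CPM in parental-labelled ones, with EPCAM called higher and KRT18 and CDH1 called lower. The basal markers KRT5, KRT14, KRT17 and EGFR summed to 6171 to 9827 CPM in KO-labelled libraries and 6169 to 6474 CPM in parental-labelled ones. KRT5 and KRT14 were called higher, and KRT17 and EGFR were not called. EGFR made most of each basal sum. It had 4560, 4927 and 8307 CPM in populations 11, 12 and OG, against 5268, 5212 and 4861 CPM in W1, W2 and W3. ESR1, the oestrogen receptor, was called lower (-1.75, SE 0.25, on the log2 scale, adjusted p = 0.00102). Markers of fibroblasts summed to 23.8 to 28.0 CPM in KO-labelled libraries, against 6.63 to 8.42 CPM in parental-labelled ones, nearly all of it COL1A1, with at most 1 count of COL1A2 and of LUM in any library. Immune markers summed to 2.54 to 4.07 CPM in KO-labelled libraries, against 27.3 to 37.1 CPM in parental-labelled ones, nearly all of it CD14, with at most 9 counts of PTPRC and at most 2 of CD3E and of CD68. The authors' FPKM disagreed with the counts on CD68, at 2.77, 9.25 and 8.49 FPKM in populations 11, 12 and OG, against 3.79, 4.52 and 4.08 FPKM in W1, W2 and W3. Endothelial markers summed to 3.18 to 7.28 CPM in KO-labelled libraries, against 3.69 to 4.22 CPM in parental-labelled ones, with CDH5 called lower. The part of these marker differences in the results below was not tested.

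Immediate early genes are transcribed within minutes of a stimulus, without new protein synthesis. Growth factors act on many of them through the ERK cascade, ternary complex factors and SRF, which binds the CArG box. Receptors that raise cAMP act through protein kinase A, which phosphorylates CREB at the cAMP response element and, by restraining salt-inducible kinases, lets the CRTC coactivators enter the nucleus. The products are mostly short-lived transcription factors and feedback inhibitors. GPR52 couples to Gs and raises cAMP, which is why these genes are of interest under a GPR52 label. In steady culture, their level is a baseline and not a response to a pulse.

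Of the 35 genes that could be tested, 8 rose and 10 fell in KO-labelled libraries, and 17 were not called. FOSL2, KLF4, BTG2, SIK1, PER1, STC1, CRTC1 and CRTC3 rose. JUN, IER5, KLF2, KLF6, KLF10, BTG1, ZFP36, RGS2, CRTC2 and SRF fell. FOS, FOSB, FOSL1, JUNB, JUND, ATF3, EGR1, EGR3, NR4A1, NR4A2, NR4A3, IER2, IER3, DUSP1, CREM, CREB1 and MYC were not called. The called share of 51.4% stands beside 40.8% of all 17420 genes tested, of which 21% were higher and 19.8% lower (edgeR quasi-likelihood test, adjusted p under 0.05 by Benjamini-Hochberg over all genes). The median log2 fold change of the 35 was 0.02 and that of all genes 0.01, and the median of its absolute size was 0.40 against 0.32. BTG2 was the called member with a rise of more than 2-fold and RGS2 the one with a fall of more than 2-fold. With EGR3, which was not called, 3 members (8.57%) were beyond 2-fold, beside 12.7% of all tested genes. The groups did not overlap for 22 of the 35 genes (62.9%), with KO-labelled libraries above in 10 and below in 12, beside 54.4% of all genes (27.4% above and 27.1% below). In bulk RNA, fewer cells expressing a gene and less RNA of it per cell cannot be told apart.

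**Figure D1:**
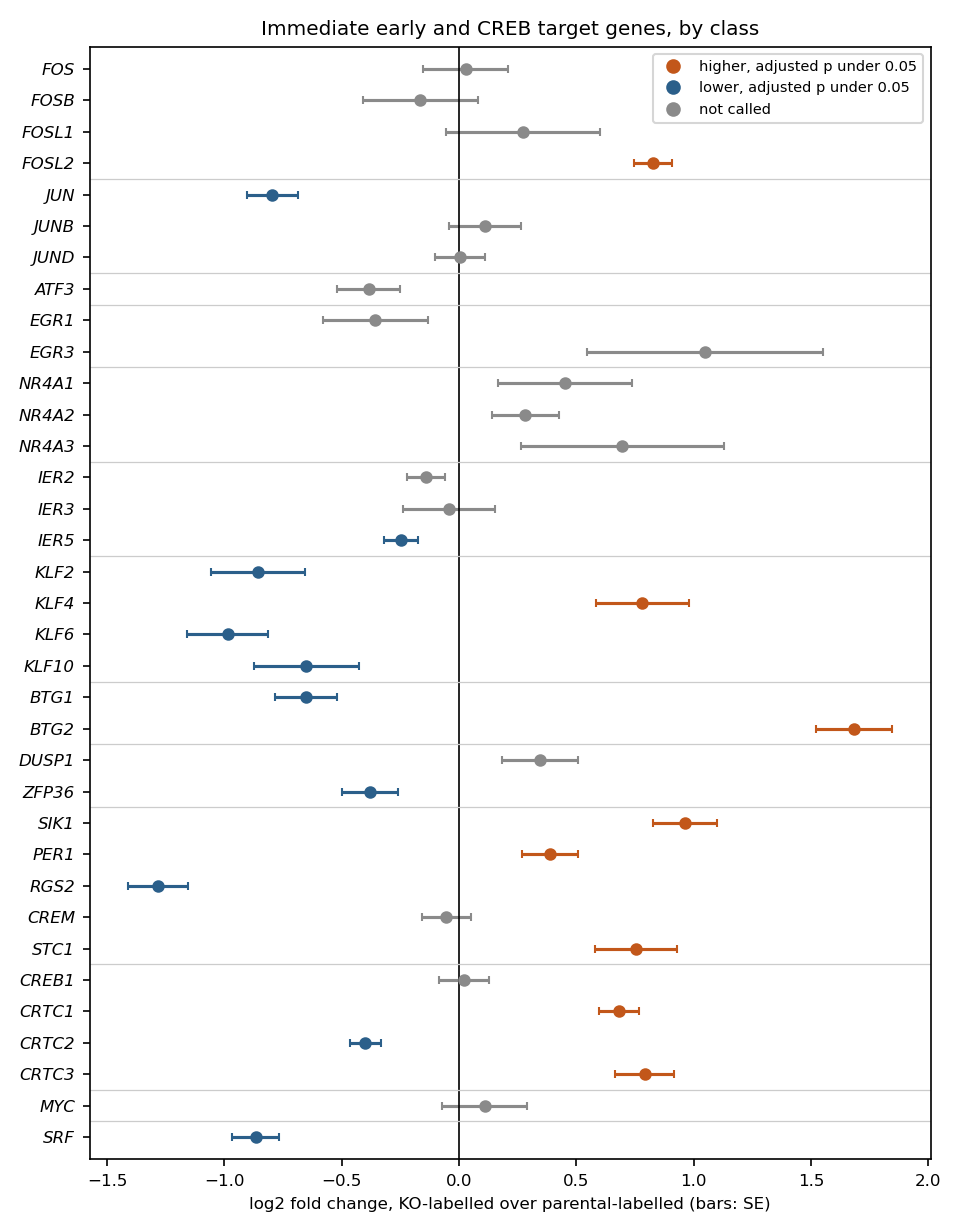
Log2 fold change (KO-labelled over parental-labelled) of the 35 tested genes, ordered by class, with bars for the SE of the edgeR fit over 3 libraries in each group. Of the points, 8 are called higher, 10 called lower and 17 not called, and called genes of both directions stand within the KLF, BTG, CREB target and CRTC classes.

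FOS-family proteins pair with JUN-family proteins to form AP-1. FOSL2, which encodes Fra-2, had 210.2, 187 and 226 CPM in populations 11, 12 and OG, against 115, 119.8 and 117 CPM in W1, W2 and W3. All 3 populations lay above all 3 wells, and the log2 fold change was 0.83 (SE 0.08) with an adjusted p of 0.000161. FOS, the prototype of the family, had 3.58, 5.59 and 4.32 CPM in populations 11, 12 and OG, against 4.29, 4.69 and 4.31 CPM in the wells. The groups overlapped, with population 12 the highest library and population 11 the lowest, and the log2 difference was 0.03 with a 95% interval of -0.39 to 0.44. FOSB had 2.60, 4.24 and 2.25 CPM in populations 11, 12 and OG, against 3.76, 3.02 and 3.41 CPM in the wells, again overlapping (-0.17, SE 0.24, on the log2 scale, adjusted p = 0.62). FOSL1, which encodes Fra-1, had 2.98, 5.90 and 8.57 CPM in populations 11, 12 and OG, against 4.12, 5.40 and 5.02 CPM in the wells. Population 11 was below every well and OG above every well, and no group difference was called (0.27, SE 0.33, on the log2 scale, adjusted p = 0.54).

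Among the JUN genes, JUN itself had 26.7, 26.6 and 21.5 CPM in populations 11, 12 and OG, against 41.9, 40.8 and 47.0 CPM in W1, W2 and W3. Every population was below every well, OG the furthest, and the log2 fold change was -0.80 (SE 0.11) with an adjusted p of 0.000857. JUNB had 52.1, 53.9 and 63.3 CPM in populations 11, 12 and OG, against 43.5, 48.0 and 65.1 CPM in the wells. Here the wells themselves ranged more widely than the populations, and the difference was not called (0.11, SE 0.15, on the log2 scale, adjusted p = 0.594). Exons of JUNB overlap those of HOOK2 on the opposite strand in GENCODE, and since the strand setting of the counting is not given, JUNB counts are uncertain. JUND, the most constitutively expressed of the family, had 34.4, 36.1 and 30.7 CPM in populations 11, 12 and OG, against 29.9, 33.4 and 37.6 CPM in the wells, and a 95% interval of -0.24 to 0.25 on the log2 scale.

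Levels can be compared between genes only per transcript length, for which the authors' FPKM values were used. FOSL2 led its family in every library, with 40.4, 37.99 and 47.1 FPKM in populations 11, 12 and OG, against 19.5, 19.8 and 19.8 FPKM in W1, W2 and W3. It made up 86.7 ± 3.73% of the FOS-family FPKM in KO-labelled libraries and 76.8 ± 1.63% in parental-labelled ones (SD, n = 3 each), and the family summed to 48.3 ± 5.88 FPKM in KO-labelled libraries and 25.7 ± 0.773 FPKM in parental-labelled ones. The summed JUN family came to 51.8 ± 1.12 FPKM in KO-labelled libraries, against 52.5 ± 8.48 FPKM in parental-labelled ones. Within it the share of JUN was 12.8 ± 1.74% in KO-labelled libraries, against 21.2 ± 1.84% in parental-labelled ones. JUNB led the JUN family in every library, with 52.3% to 60.7% of its FPKM in KO-labelled libraries and 46.0% to 51.7% in parental-labelled ones. These shares restate the FOSL2 and JUN differences as a make-up and were given no test of their own.

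**Figure D2:**
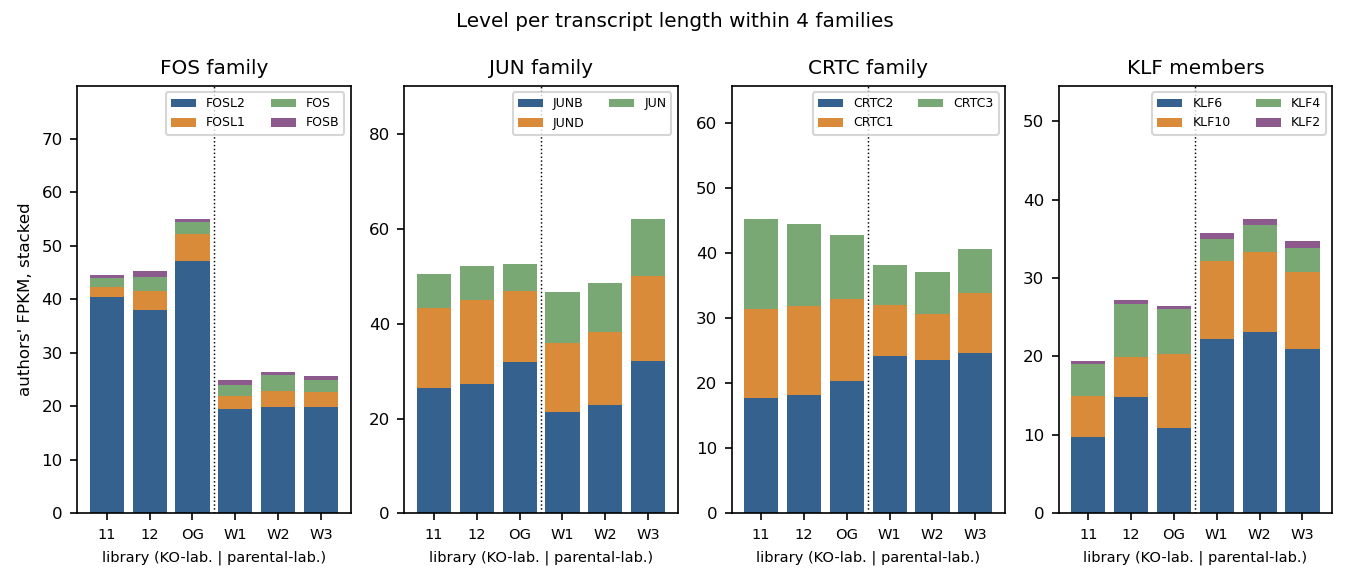
Stacked bars of the authors' FPKM in each library, with KO-labelled libraries 11, 12 and OG left of the dotted line and parental-labelled wells W1, W2 and W3 right of it, for the FOS, JUN and CRTC families and 4 KLF genes. FOSL2 takes up most of each FOS bar, and CRTC2 takes a smaller share of the CRTC bars in KO-labelled libraries (39.2% to 47.5%) than in parental-labelled ones (60.9% to 63.7%).

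ATF3, a stress-induced partner and competitor of AP-1, had 9.12, 12.8 and 10.4 CPM in populations 11, 12 and OG, against 14.6, 13.9 and 13.7 CPM in the wells. All populations lay below all wells, yet the log2 fold change of -0.38 (SE 0.13) had an adjusted p of 0.0512. Over the 14 alternatives its adjusted p ranged between 0.0127 and 0.149, and it was called lower with DESeq2 (0.0376), with limma voom (0.0433), without population 12 (0.0127) and without OG (0.0484).

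EGR genes encode zinc-finger factors, of which EGR1 is induced by ERK signalling through SRF. EGR1 had 48.8, 26.4 and 26.4 CPM in populations 11, 12 and OG, against 42.5, 43.4 and 44.2 CPM in W1, W2 and W3. Populations 12 and OG were below all wells and population 11 above them, and no difference was called (-0.36, SE 0.22, on the log2 scale, adjusted p = 0.237). Without population 11 the value was -0.72 (SE 0.07) with an adjusted p of 0.0007, and over the 14 alternatives the adjusted p ran up to 0.53. EGR3 was low, with 71, 44 and 18 counts, or 2.68, 1.56 and 0.643 CPM, in populations 11, 12 and OG, against 18, 28 and 21 counts, or 0.594, 1.11 and 0.675 CPM, in the wells. Populations 11 and 12 were above every well and OG was not, and the log2 difference of 1.05 (SE 0.50) had an adjusted p of 0.13. EGR3 was called higher without OG, at 1.43 (SE 0.33) and an adjusted p of 0.00485, the lowest over alternatives that reached 0.417.

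The NR4A genes encode orphan nuclear receptors that CREB induces strongly after a cAMP pulse. NR4A1 (Nur77) had 18.5, 11.6 and 7.61 CPM in populations 11, 12 and OG, against 8.18, 10.01 and 9.29 CPM in W1, W2 and W3. Population 11 was the highest library and OG the lowest, and the groups overlapped (0.45, SE 0.28, on the log2 scale, adjusted p = 0.239). Without OG the difference was 0.71 (SE 0.18) with an adjusted p of 0.00849, and the adjusted p ran up to 0.82 over the 14 alternatives. NR4A2 (Nurr1) had 27.8, 28.99 and 40.5 CPM in populations 11, 12 and OG, against 27.0, 27.3 and 25.7 CPM in the wells. Each population was above each well, with OG the furthest, but the difference of 0.28 (SE 0.14) was not called (adjusted p = 0.153), nor was it under any alternative. NR4A3 (NOR-1) had 36, 20 and 14 counts in populations 11, 12 and OG, against 16, 18 and 11 counts in the wells, and overlapped. EGR3, NR4A1 and NR4A3 were each highest in population 11 and lowest in OG among the KO-labelled libraries. EGR1, JUN, KLF2 and CRTC3 had the same order, whereas NR4A2 was highest in OG and lowest in population 11. EGR1 was nearly equal in populations 12 and OG, JUN nearly equal in populations 11 and 12, and KLF2 had low counts. The share of all tested genes with either order was not computed.

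The IER genes encode small early response proteins. IER3, an ERK-regulated survival factor, had the highest FPKM of the 37 genes in both groups (136 ± 40.2 FPKM in KO-labelled libraries and 136 ± 9.23 FPKM in parental-labelled ones, SD, n = 3 each). It had 121, 184 and 225 CPM in populations 11, 12 and OG, against 172, 179 and 194 CPM in W1, W2 and W3. Population 11 was below all wells and OG above them, and the 95% interval of the log2 difference was -0.49 to 0.41. IER2 had 94.7, 91.9 and 95.2 CPM in populations 11, 12 and OG, against 97.8, 98.7 and 114 CPM in the wells, with every population just below every well (-0.14, SE 0.08, on the log2 scale, adjusted p = 0.19). IER5, a regulator linked to the heat shock factor HSF1, had 109.7, 122 and 115 CPM in populations 11, 12 and OG, against 134, 133 and 145 CPM in the wells. It fell slightly, by 0.25 (SE 0.07) on the log2 scale with an adjusted p of 0.0258. The call did not pass without population 11 (adjusted p = 0.0585) or without W1 (0.0691), W2 (0.0656) or W3 (0.0884), nor on either FPKM scale, within a range of 0.0127 to 0.0948 over the 14 alternatives.

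KLF genes encode zinc-finger factors that bind GC-rich promoters, and all 4 on the list were called. KLF6, a growth-restraining factor, had 46.0, 75.0 and 48.4 CPM in populations 11, 12 and OG, against 111, 113 and 112 CPM in W1, W2 and W3. The wells were tightly grouped and every population was below them, population 12 the least, at -0.99 (SE 0.17) on the log2 scale (adjusted p = 0.00275). KLF2 was low, with 28, 25 and 23 counts in populations 11, 12 and OG, against 52, 45 and 47 counts in the wells. The groups did not overlap, and the log2 fold change was -0.86 (SE 0.20) with an adjusted p of 0.0102 (-0.30 on the log2(FPKM + 1) scale, which understates changes of low genes).

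KLF4, a factor of epithelial differentiation, moved the other way, with 11.9, 20.6 and 17.1 CPM in populations 11, 12 and OG, against 8.68, 10.8 and 9.48 CPM in the wells. Population 11 was only just above the wells, and the log2 fold change of 0.78 (SE 0.20) had an adjusted p of 0.0152. Without W1 or without W3 the adjusted p was 0.0653 and 0.0627, the upper end of a range that began at 0.00115. KLF10, a TGF-beta-inducible factor, had 18.3, 18.1 and 33.5 CPM in populations 11, 12 and OG, against 35.8, 38.4 and 35.7 CPM in W1, W2 and W3. Populations 11 and 12 were about alike and far below the wells, whereas OG was close to them. Its log2 fold change of -0.65 (SE 0.22) had an adjusted p of 0.0479, at the edge of the threshold. Without OG it was -1.01, with an adjusted p of 5.23e-06. It was not called without population 11 (0.134), population 12 (0.144), W1 (0.104), W2 (0.122) or W3 (0.111), nor under 5 further settings. In FPKM, the 4 KLF genes summed to 24.4 ± 4.27 in KO-labelled libraries and 36.0 ± 1.46 in parental-labelled ones (SD, n = 3 each), with KLF4 at 22.5 ± 2.03% of the sum in KO-labelled libraries and 8.62 ± 0.621% in parental-labelled ones.

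BTG1 and BTG2 encode related antiproliferative proteins that recruit mRNA deadenylases, and BTG2 is also a p53 target. BTG2 had 10.6, 7.96 and 7.96 CPM in populations 11, 12 and OG, against 2.61, 2.82 and 2.80 CPM in W1, W2 and W3. Populations 12 and OG were alike, population 11 was higher, and all 3 were well above the wells, at 1.68 (SE 0.16) on the log2 scale (adjusted p = 0.000153, and 1.09 on the log2(FPKM + 1) scale). BTG1 had 28.6, 31.4 and 41.3 CPM in populations 11, 12 and OG, against 53.3, 53.8 and 52.2 CPM in the wells. Every population was below the wells, with OG the nearest to them, and the log2 fold change was -0.65 (SE 0.13) with an adjusted p of 0.00536. BTG1 remained the more abundant of the pair in every library, at 75.2% to 86.3% of their summed FPKM in KO-labelled libraries and 95.6% to 96.1% in parental-labelled ones.

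DUSP1 and ZFP36 close the response, DUSP1 by dephosphorylating MAP kinases and ZFP36 (tristetraprolin) by destabilising AU-rich mRNAs. DUSP1 had 4.07, 4.28 and 5.53 CPM in populations 11, 12 and OG, against 3.50, 3.62 and 3.83 CPM in W1, W2 and W3. Every population was above every well by a small margin, and the log2 difference of 0.34 (SE 0.16) was not called (adjusted p = 0.123). ZFP36 had 25.4, 27.3 and 20.4 CPM in populations 11, 12 and OG, against 30.0, 31.1 and 33.8 CPM in the wells, and fell in the test, at -0.38 (SE 0.12) on the log2 scale (adjusted p = 0.0353). That call was not made without population 11 (0.0534), W1 (0.0701), W2 (0.0878) or W3 (0.111), nor with upper quartile scaling (0.0521), library totals (0.0551) or either FPKM scale, within a range that began at 0.0162. MYC, the growth-promoting early gene, had 49.6, 57.5 and 84.7 CPM in populations 11, 12 and OG, against 57.0, 56.3 and 64.5 CPM in the wells. Population OG was above all wells and population 11 below them, and the 95% interval of the log2 difference was -0.31 to 0.53.

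**Figure D3:**
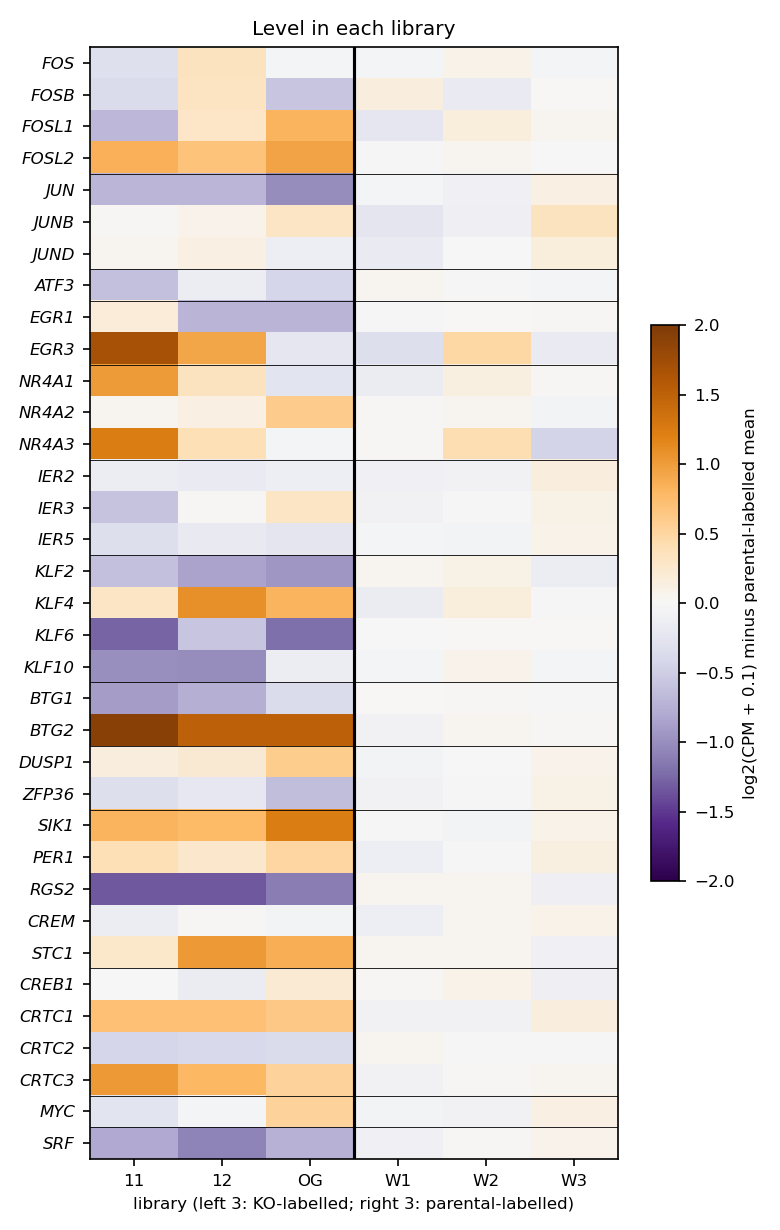
Heat map of the 35 tested genes, coloured by log2(CPM + 0.1) in a library minus the mean over the parental-labelled libraries, with libraries 11, 12 and OG (KO-labelled) left of the line and W1, W2 and W3 (parental-labelled) right of it. Rows such as FOSL2, JUN, BTG2, RGS2 and CRTC1 have 1 colour across all 3 populations, and rows such as FOSL1, EGR3, NR4A1 and MYC change sign between population 11 and OG.

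Genes that cAMP and CREB induce went in both directions. SIK1, a salt-inducible kinase that feeds back on CRTC proteins, had 37.1, 36.2 and 50.2 CPM in populations 11, 12 and OG, against 20.8, 20.2 and 22.3 CPM in W1, W2 and W3. A near-identical copy, SIK1B, is annotated in later builds, so the SIK1 counts are uncertain where reads fit both. All populations were above all wells, OG the furthest, at 0.96 (SE 0.14) on the log2 scale (adjusted p = 0.000979). RGS2, which speeds GTP hydrolysis on Gq and restrains adenylyl cyclase signalling, had 3.28, 3.29 and 3.82 CPM in populations 11, 12 and OG, against 8.74, 8.70 and 7.88 CPM in the wells. It was the member with the steepest fall, all populations lying far below all wells, at -1.28 (SE 0.13) on the log2 scale (adjusted p = 0.000188). STC1, which encodes the secreted glycoprotein stanniocalcin-1, had 39.3, 66.3 and 59.5 CPM in populations 11, 12 and OG, against 33.5, 33.7 and 30.7 CPM in the wells. Population 11 was only a little above the wells, and the log2 fold change was 0.75 (SE 0.18) with an adjusted p of 0.0103, which became 0.0533 without W3, in a range that began at 0.000295.

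PER1, a clock gene with a cAMP-responsive promoter, had 11.2, 10.1 and 12.0 CPM in populations 11, 12 and OG, against 7.82, 8.30 and 9.29 CPM in W1, W2 and W3. The groups were separate by a small gap, and the log2 fold change of 0.39 (SE 0.12) had an adjusted p of 0.033. It was not called without population 11 (0.0663), W1 (0.136) or W2 (0.116), without a filter (0.0571) or on either FPKM scale, within a range that began at 0.021. CREM encodes activators and, from an internal promoter, the inducible repressor ICER, and a count per gene cannot separate them. CREM had 11.7, 13.1 and 12.4 CPM in populations 11, 12 and OG, against 11.8, 13.2 and 13.7 CPM in the wells, overlapping groups with a 95% interval of -0.30 to 0.19 for the log2 difference.

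Promoter sequences were read for members in RefSeq windows on GRCh38.p14, which run 250 bases before to 50 bases after a start, and 29 of the 37 members matched. The upstream 250 bases of 4 cAMP-responsive genes with different outcomes are shown because the full cAMP response element TGACGTCA and its core TGACG are the letters CREB binds, and capitals mark the core on either strand, on which the reverse complement reads CGTCA. SIK1 (rose) lies on the minus strand at chr21:43427132-43427381, RGS2 (fell) on the plus strand at chr1:192808789-192809038, DUSP1 (not called) on the minus strand at chr5:172771196-172771445 and FOS (not called) on the plus strand at chr14:75278578-75278827.
SIK1: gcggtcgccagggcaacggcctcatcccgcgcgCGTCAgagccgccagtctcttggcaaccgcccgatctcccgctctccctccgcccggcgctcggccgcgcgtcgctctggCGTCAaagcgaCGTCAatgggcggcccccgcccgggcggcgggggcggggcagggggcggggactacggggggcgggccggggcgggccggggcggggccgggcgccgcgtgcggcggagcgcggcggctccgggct
RGS2: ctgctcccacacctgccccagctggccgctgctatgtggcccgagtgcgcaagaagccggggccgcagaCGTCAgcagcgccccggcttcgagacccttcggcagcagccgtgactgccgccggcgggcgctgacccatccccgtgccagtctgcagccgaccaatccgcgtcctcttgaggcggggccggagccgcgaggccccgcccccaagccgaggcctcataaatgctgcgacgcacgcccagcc
DUSP1: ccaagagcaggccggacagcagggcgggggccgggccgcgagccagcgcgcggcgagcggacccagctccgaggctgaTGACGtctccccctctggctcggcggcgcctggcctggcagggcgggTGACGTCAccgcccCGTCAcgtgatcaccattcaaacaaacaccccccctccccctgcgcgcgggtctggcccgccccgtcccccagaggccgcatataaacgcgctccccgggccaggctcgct
FOS: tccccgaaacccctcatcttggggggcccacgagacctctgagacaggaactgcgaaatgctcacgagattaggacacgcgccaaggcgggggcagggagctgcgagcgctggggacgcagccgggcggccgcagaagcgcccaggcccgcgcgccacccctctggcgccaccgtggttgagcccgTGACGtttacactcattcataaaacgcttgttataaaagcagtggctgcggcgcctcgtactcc
The SIK1 window held 3 cores, that of RGS2 1, that of DUSP1 4 and that of FOS 1, which begins 64 bases before the start. In DUSP1, 2 of the 4 cores are the overlapping arms of 1 full element, which begins 125 bases before the start.

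Both strands of the whole windows were searched for each motif. In these, taking a gene as a holder where any of its windows held the letters, 20 of the 29 matched members (69%) held a core, against 28.4% of the 27305 genes in the table. The full element was in 3 members, CREM, DUSP1 and JUND (10.3%), against 2.25% of all genes. None of those 3 was called, and of the 20 holders of a core 5 rose, 4 fell, 9 were not called and 2 were not tested. A match is a description of letters and not of a bound site, and the core is contained in the full element, so the counts of the 2 motifs overlap. The EGR motif GCGNGGGCG was in 10 members (34.5%), against 11.2% of all genes, and of these 4 rose, 3 fell, 2 were not called and 1 was not tested. For comparison, of all 29 matched members 7 rose, 8 fell, 12 were not called and 2 were not tested. Whether holding a motif goes with a call was not tested. Members were chosen by name and role, several as cAMP-responsive genes, so their motif shares are no independent result about these data. The 27305 genes were also not limited to the 17420 that were tested. The AP-1 motif TGANTCA was in FOSL2 (3.45%), downstream of its start, against 9.37% of all genes.

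CREB1 and its CRTC coactivators stand upstream of these targets. CREB1 had 47.2, 42.9 and 55.0 CPM in populations 11, 12 and OG, against 48.3, 50.5 and 44.4 CPM in W1, W2 and W3. The groups overlapped, and the 95% interval of the log2 difference was -0.22 to 0.26. CRTC1 had 51.1, 51.3 and 48.3 CPM in populations 11, 12 and OG, against 29.7, 29.8 and 34.5 CPM in the wells. All populations were alike and above all wells, at 0.68 (SE 0.09) on the log2 scale (adjusted p = 0.000574). CRTC3 had 64.3, 54.7 and 45.3 CPM in populations 11, 12 and OG, against 30.1, 32.1 and 32.7 CPM in the wells, also without overlap, population 11 being the highest. Its log2 fold change was 0.79 (SE 0.13) with an adjusted p of 0.00176. CRTC2, the coactivator of hepatic gluconeogenesis, moved in the opposite direction, with 48.9, 50.3 and 51.2 CPM in populations 11, 12 and OG, against 67.9, 65.4 and 65.2 CPM in the wells. Its log2 fold change was -0.40 (SE 0.07) with an adjusted p of 0.00205, the populations lying close together below the wells. These 3 calls were made under each of the 14 alternatives.

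Per transcript length the 3 CRTC genes summed to 44.3 ± 1.28 FPKM in KO-labelled libraries and 38.6 ± 1.83 FPKM in parental-labelled ones (SD, n = 3 each). CRTC2 was 42.5 ± 4.37% of that sum in KO-labelled libraries, against 62.7 ± 1.58% in parental-labelled ones. CRTC1 was 30.0 ± 0.599% in KO-labelled libraries, against 20.7 ± 1.87% in parental-labelled ones. CRTC3 was 27.4 ± 3.99% in KO-labelled libraries, against 16.7 ± 0.574% in parental-labelled ones. CRTC2 was the most abundant of the 3 in every library by this measure, and the ranges of its share did not overlap between groups.

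**Figure D4:**
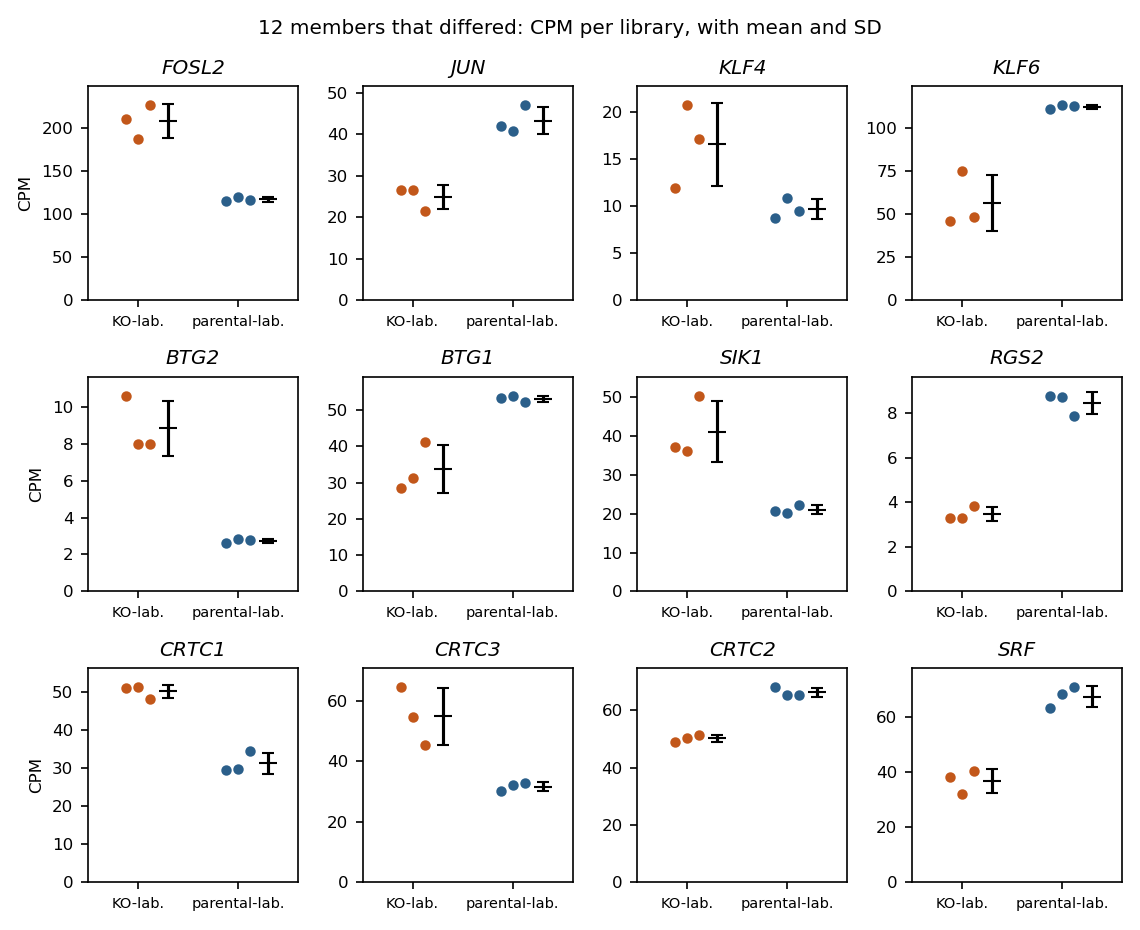
CPM of 12 called genes in each library (points), with the mean and SD of the group beside them, KO-labelled left and parental-labelled right in each panel and each axis starting at 0. No panel has an overlap between groups. The SD in CPM is larger in the KO-labelled group for FOSL2, KLF4, KLF6, BTG2, BTG1, SIK1, CRTC3 and SRF. For JUN, RGS2, CRTC1 and CRTC2 it is larger in the parental-labelled group.

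SRF, which with its cofactors drives many early genes as well as its own, had 38.4, 32.1 and 40.5 CPM in populations 11, 12 and OG, against 63.3, 68.4 and 70.9 CPM in W1, W2 and W3. All populations were below all wells, population 12 the lowest, at -0.87 (SE 0.10) on the log2 scale (adjusted p = 0.000386). Windows of SRF (fell) and EGR1 (not called) are shown because they hold the CArG box that SRF binds, marked in capitals, in the upstream 250 bases on the plus strand at chr6:43171019-43171268 for SRF and chr5:138465229-138465478 for EGR1.
SRF: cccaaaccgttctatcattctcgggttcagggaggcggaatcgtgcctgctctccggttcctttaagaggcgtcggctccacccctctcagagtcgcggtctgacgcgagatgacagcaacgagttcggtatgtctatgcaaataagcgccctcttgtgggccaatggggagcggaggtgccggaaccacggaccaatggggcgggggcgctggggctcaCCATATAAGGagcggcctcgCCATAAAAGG
EGR1: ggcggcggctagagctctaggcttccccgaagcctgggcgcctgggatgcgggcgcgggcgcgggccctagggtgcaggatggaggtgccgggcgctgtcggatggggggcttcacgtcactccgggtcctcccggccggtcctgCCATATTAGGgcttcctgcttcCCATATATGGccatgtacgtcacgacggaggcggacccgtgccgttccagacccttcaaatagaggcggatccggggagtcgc
Each held 2 CArG boxes, and TGACG cores in these windows were left in lower case. The boxes of SRF begin 30 and 10 bases before the start, those of EGR1 105 and 83 bases before it. The bases after the start were found in GENCODE transcripts of SIK1, RGS2, DUSP1 and FOS, but in none of SRF or EGR1. The starts from which these distances are counted therefore lack that check. EGR2 was the remaining member with a CArG box, so 3 of the 29 matched members (10.3%) held one, against 1.6% of all genes in the table. This share too describes a list chosen by role and is no independent result.

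Other genes around these factors were taken as 6 lists, chosen by role, and their counts stand beside 21% of all tested genes called higher and 19.8% called lower. Counts under an alternative stand beside the all-gene share called in that setting, in either direction. This share was 27.7%, 27.3% and 29.6% without W1, W2 and W3, and 52.6% without OG. It was 34.6% on the log2(FPKM + 1) scale, 35% on the log2(FPKM + 0.1) scale and 22% with no filter, against 40.8% in the main test. Among kinases, partners and coactivators of CREB, 2 of 19 tested genes rose, 8 fell and 9 were not called, and the median log2 fold change was -0.19. The number that fell was 5 without W2, 5 on the log2(FPKM + 0.1) scale and 4 on the log2(FPKM + 1) scale. CREB3, a membrane-anchored relative of CREB that is activated by proteolysis, had 29.2, 31.1 and 32.1 CPM in populations 11, 12 and OG, against 116, 115 and 123 CPM in W1, W2 and W3 (-1.94, SE 0.07, on the log2 scale, adjusted p = 1.95e-06). RPS6KA3, which encodes the CREB kinase RSK2, averaged 54.0 ± 0.816 CPM in KO-labelled libraries and 105 ± 7.45 CPM in parental-labelled ones (-0.96, SE 0.08, adjusted p = 6.07e-05), with the SD over 3 libraries after each mean here and below. The acetyltransferase CREBBP, which binds phosphorylated CREB, averaged 166 ± 2.24 CPM in KO-labelled libraries and 108 ± 1.70 CPM in parental-labelled ones (0.62, SE 0.06, adjusted p = 0.000141). CAMK4, a calcium-dependent CREB kinase, averaged 8.37 ± 1.40 CPM in KO-labelled libraries and 3.25 ± 0.425 CPM in parental-labelled ones (1.37, SE 0.17, adjusted p = 0.000557). The related acetyltransferase EP300 and the protein kinase A subunit PRKACA were not called, at 0.02 (SE 0.09) and -0.13 (SE 0.09). The other protein kinase A subunit on this list, PRKACB, was called lower (-0.37, SE 0.10, adjusted p = 0.0223), with all populations below all wells.

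Of 17 other CREB target genes 8 could be tested, and 5 rose, none fell and 3 were not called, with a median of 1.04. The number that rose was 3 without W1, 3 without W3 and 2 on the log2(FPKM + 1) scale, and without OG 6 rose and 1 fell. SGK1, a kinase of ion transport and survival, had 23.4, 35.5 and 23.7 CPM in populations 11, 12 and OG, against 6.96, 8.07 and 7.01 CPM in W1, W2 and W3 (1.91, SE 0.18, on the log2 scale, adjusted p = 0.000148). The cAMP phosphodiesterase PDE4D had 5.2, 4.24 and 6.36 CPM in populations 11, 12 and OG, against 1.85, 2.19 and 1.83 CPM in the wells (1.43, SE 0.20, adjusted p = 0.00085, and 0.48 on the log2(FPKM + 1) scale). PER2, the clock partner of PER1, was the fifth. INHBA, an activin subunit, had 3.09, 5.23 and 18.3 CPM in populations 11, 12 and OG, against 1.452, 0.993 and 0.932 CPM in the wells, OG being the highest by far (2.97, SE 0.72, adjusted p = 0.0122, 0.0573 without W3 and 0.0612 on the log2(FPKM + 1) scale). Without OG the log2 value of INHBA was 1.88, with an adjusted p of 0.000396. The neurotrophin BDNF had 14, 12 and 47 counts in populations 11, 12 and OG, against 2, 2 and 4 counts in the wells (3.19, SE 0.78, adjusted p = 0.0121, 0.0531 without W1 and 0.11 on the log2(FPKM + 1) scale). Without OG the log2 value of BDNF was 2.30, with an adjusted p of 0.00192. BDNF passed the filter on low counts only through the KO-labelled libraries, so it could enter the test only as a gene higher there. Its rise therefore adds no support to the count of 5 or to the median of 1.04, both of which include it. PDE4B had 8.70, 10.7 and 36.2 CPM in populations 11, 12 and OG, against 26.1, 26.6 and 26.4 CPM in the wells, low in populations 11 and 12 and high in OG, and was not called. AREG, a CREB target and EGFR ligand, had 1 count in population OG and 0 in each other library, yet the authors' FPKM listed it at 0.542, 1.1196 and 1.73 in populations 11, 12 and OG, against 0.503, 0.584 and 0.488 in the wells, so the 2 deposited tables disagree on it and its counts were not used. With 8 of 17 genes passing the filter, this list is described and not tested.

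**Figure D5:**
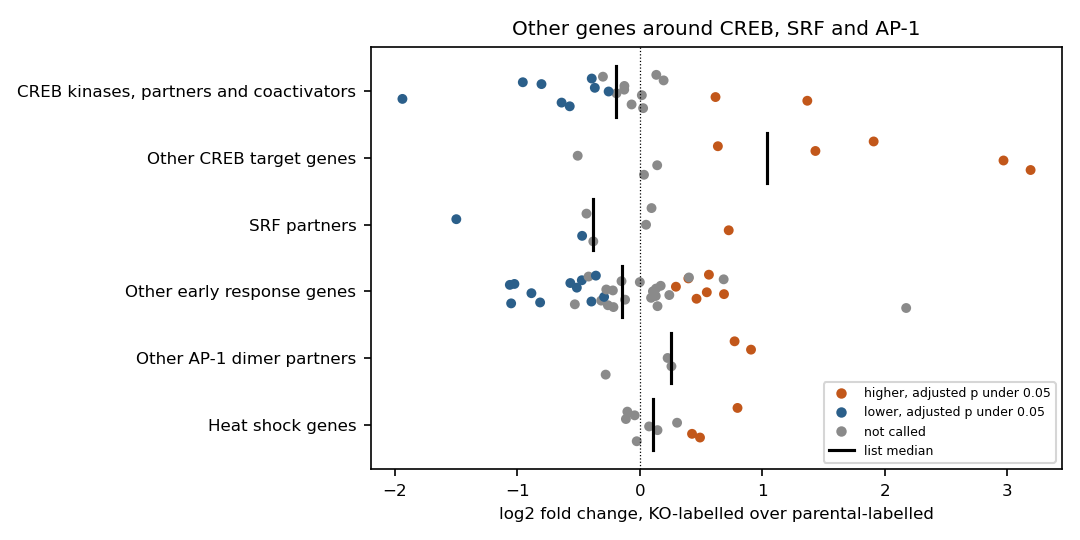
Log2 fold change (KO-labelled over parental-labelled) of each tested gene in 6 lists around CREB, SRF and AP-1, with 1 point a gene and a line at the list median. The medians run from -0.38 for SRF partners to 1.04 for other CREB target genes, and each list holds genes that were not called.

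Among SRF partners 1 of 7 tested genes rose, 2 fell and 4 were not called. The number that fell was 4 without OG, 3 with DESeq2, limma voom or no filter, and 1 on either FPKM scale, where none rose. ELK1, a ternary complex factor, averaged 41.8 ± 0.198 CPM in KO-labelled libraries and 57.9 ± 3.91 CPM in parental-labelled ones (-0.47, SE 0.08, on the log2 scale, adjusted p = 0.00187). ELK3, a related factor that can repress, averaged 12.7 ± 2.70 CPM in KO-labelled libraries and 7.68 ± 0.269 CPM in parental-labelled ones (0.73, SE 0.16, adjusted p = 0.00824). On the 2 FPKM scales ELK1 had adjusted p-values of 0.0871 and 0.0856, and ELK3 0.0925 and 0.0944. FHL2, an SRF cofactor and target, had 38.2, 55.7 and 113 CPM in populations 11, 12 and OG, against 195, 195 and 194 CPM in W1, W2 and W3, the populations differing widely among themselves (-1.50, SE 0.33, adjusted p = 0.00845).

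Among 37 tested genes of a broader early response list, 6 rose, 11 fell and 20 were not called, with a median of -0.15. Without any 1 of the wells W1, W2 and W3, 3 rose and 7 fell, and without OG 7 rose and 17 fell. The polo-like kinase PLK2 averaged 237 ± 17.5 CPM in KO-labelled libraries and 483 ± 8.11 CPM in parental-labelled ones (-1.02, SE 0.07, adjusted p = 3.72e-05). The matricellular gene CYR61 averaged 73.7 ± 12.1 CPM in KO-labelled libraries and 153 ± 1.003 CPM in parental-labelled ones (-1.05, SE 0.12, adjusted p = 0.000286), the kinase PIM1 10.6 ± 1.59 CPM in KO-labelled libraries and 22.3 ± 0.753 CPM in parental-labelled ones (-1.06, SE 0.12, adjusted p = 0.000349), and the inhibitor of differentiation ID3 30.6 ± 4.37 CPM in KO-labelled libraries and 56.4 ± 5.77 CPM in parental-labelled ones (-0.89, SE 0.12, adjusted p = 0.000919). Of 5 tested AP-1 dimer partners 2 rose and 3 were not called, and without OG 2 rose and 1 fell. MAFG averaged 44.1 ± 0.217 CPM in KO-labelled libraries and 25.8 ± 0.719 CPM in parental-labelled ones (0.77, SE 0.07, adjusted p = 0.000118).

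Heat shock genes encode chaperones, which act on misfolded proteins, and HSF1, the factor that induces them. Of the 10 tested, 3 rose, none fell and 7 were not called, with a median of 0.11. Without OG 5 rose and 2 fell, and without W1 or without W2 2 rose. HSPH1, a chaperone, averaged 309 ± 24.7 CPM in KO-labelled libraries and 178 ± 3.07 CPM in parental-labelled ones (0.80, SE 0.07, adjusted p = 0.00012). HSP90AA1 was at 0.43, SE 0.09 (adjusted p = 0.00788), and the factor HSF1 at 0.49, SE 0.12 (adjusted p = 0.0115, and 0.0575 without W1 and 0.0554 without W2). The strongly inducible HSPA1A had 57.7, 62.0 and 38.7 CPM in populations 11, 12 and OG, against 42.7, 47.4 and 53.1 CPM in W1, W2 and W3, overlapping groups, with the limit that its near-identical copy HSPA1B shares reads with it. DNAJB1 was at -0.03 (SE 0.07).

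The populations differed among themselves more than the wells did. The SD of log2 CPM was larger in the KO-labelled group for 29 of the 35 members (82.9%), as for 76.3% of all genes, with a median of 0.25 in KO-labelled libraries, against 0.09 in parental-labelled ones. For 4 members, FOSL1, EGR3, NR4A1 and NR4A3, the highest and the lowest population were more than 2-fold apart, and no member reached that among the wells. Population OG was the highest of the 3 for 16 members, population 12 for 11 and population 11 for 8, whereas population 11 was the lowest for 16. The shares of all tested genes with such ranges or ranks were not computed, and EGR3 and NR4A3 had low counts. All 18 called members had every population on 1 side of the parental-labelled mean, as did 5 of the 17 that were not called. A call favours such a pattern and the share over all tested genes was not computed, so these counts are no separate support for the calls. Of the 18 called, 12 were called under each of the 14 alternatives: FOSL2, BTG2, SIK1, CRTC1 and CRTC3 as higher, and JUN, KLF2, KLF6, BTG1, RGS2, CRTC2 and SRF as lower.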

How the data were processed

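The authors deposited raw counts per gene symbol and FPKM values (scaled by transcript length and library size), with 1 column per sample. The build hg19 and the tools Cufflinks 2.0.2, SAMtools 0.1.19 and STAR 2.4.0f1 are listed, per the submitters' processing notes. The sources used here do not give the counting program, its annotation, its strand setting or its treatment of reads with several placements. Per the labels' protocols, libraries were made from poly(A) RNA with a directional kit. Samples were grouped by the genotype label. Counts were tested with edgeR 4.0.16 in R 4.3.3 (filterByExpr with minimum count 10 and minimum total 15, TMM, glmQLFit without its legacy form, glmQLFTest, Benjamini-Hochberg over 17420 genes, threshold 0.05, all 6 libraries, no covariate). The SE is the size of the log2 fold change divided by the square root of F, and the 95% intervals use the t distribution of that fit. The procedure was tested on simulated counts.

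The 37 members and the 6 lists around them were chosen with earlier results of these data known. All members are accounted for. From each list, up to 4 called genes with the smallest p were named, and some listed genes are not reported here. EP300, PRKACA, PRKACB, PER2, PDE4B, AREG, HSPA1A and DNAJB1 were chosen after their values were seen. Promoters came from RefSeq (GRCh38.p14) and exon overlaps from GENCODE v29 (GRCh38), a later build than hg19, so no coordinates were joined to the counts. The exons of 10 members overlap another annotated gene, and for JUNB that gene was also in the count table. Alternatives were 3 other scalings, no filter, DESeq2 1.42.0, limma 3.58.1 with voom, limma on log2(FPKM + 1) and log2(FPKM + 0.1), and leaving out each library.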

Additional observations from a re-analysis of the deposited data

How the results depend on the processing

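The number of members called higher was 8 and ranged between 6 and 10 when each library was left out in turn, and the number called lower was 10 and ranged between 7 and 11. Under the other alternatives the counts lay at 7 to 8 higher and 7 to 11 lower. Over all genes, 3661 were called higher and 3444 lower, between 2482 and 4730 higher and between 2390 and 4637 lower with a library left out, the largest numbers being those without OG. Of the 490 values of a tested member under an alternative, 450 kept their side of the threshold, 33 lost a call and 7 gained one, and no called value changed sign. The cause of the lost and gained calls was not tested, though leaving out a library also leaves fewer samples. Calls of IER5, KLF4, KLF10, ZFP36, PER1 and STC1 depended on the setting. Other scalings moved the median log2 fold change of all genes to at most 0.05. No paired analysis was possible because the titles of the populations share no replicate number with the wells. EGR2 had too few counts to be tested.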
